A study of Mus musculus with 2 samples.

Results

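Among the biliary epithelial cells of mouse liver profiled here, 584 of 6220 kept cells (of 6362 deposited) carried a high summed count of 5 transcripts, Adgrv1, Ctnna2, Igsf11, Npas3 and Rnd1, and they are called high-score cells below. Cells entered with 500 or more detected genes, 1000 or more UMIs (unique molecular identifiers, each standing for 1 captured transcript) and no more than 15% mitochondrial UMIs. The score of a cell was the number of UMIs of the 5 genes divided by all UMIs of that cell, and a high-score cell lay in the top 10% of the score over both libraries and held at least 2 of these UMIs. The level of the 5 genes in these cells is therefore set by the rule and is given only as a description.

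The study holds 2 libraries of biliary epithelial cells from liver, 1 from a mouse preparation labelled Sox9cKO and 1 from a preparation labelled Sox9con, so each genotype is 1 library. The labels give no Cre driver, no deleted exon, no age and no strain, and no animal number beyond the library name. The cells were fixed and given their barcodes over rounds of splitting and pooling (Evercode kit of Parse Biosciences), in which the well of the opening round marks the sample. With 1 library per genotype there is no replicate spread, so no test was made. Ratios and shares carry 95% counting intervals, which cover counting error only. The labels do not say whether the 4 wells of Sox9con and 5 of Sox9cKO hold the same or different animals. The wells are therefore not counted as replicates.

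Adgrv1 encodes a very large adhesion receptor of the ankle links within sensory hair bundles. Ctnna2 encodes the alpha-catenin of neurons that ties cadherins to actin, and Igsf11 an immunoglobulin-type adhesion protein of synapses. Npas3 encodes a basic helix-loop-helix PAS transcription factor known from brain, and Rnd1 a small GTPase that binds plexins and loosens actin fibres and cell contacts. Biliary epithelial cells line the bile ducts, are marked by keratins Krt7 and Krt19, Epcam and the transcription factor Sox9, and modify bile by secreting chloride, bicarbonate and water. Bile duct cells are also known for their response to the mechanosensitive coactivators YAP and TAZ, which act through TEAD factors.

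The targeted gene was read first. Sox9 stood at 184 CPM (counts per 1000000 summed UMIs) in the high-score cells and 118 CPM in the remaining cells of the library labelled Sox9cKO, against 222 and 128 CPM in the library labelled Sox9con. Its log2 ratio, Sox9cKO over Sox9con, was -0.27 (-0.62 to 0.06) in high-score and -0.13 in remaining cells. The transcript level thus neither shows nor contradicts the knockout label. Since the deleted part of the gene is not given, counts over the whole gene cannot check the deletion. The libraries are named by their labels throughout. No cell barcode was shared between the libraries. The median depth was 3203 UMIs per kept cell in Sox9con and 5041 in Sox9cKO, and within Sox9con it was 3126 UMIs in high-score and 3222 in remaining cells.

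High-score cells made up 14.1% (13.0 to 15.3) of the Sox9con cells, 495 of 3507, and 3.28% (2.64 to 4.02) of the Sox9cKO cells, 89 of 2713. In the Sox9con wells D9, D10, D11 and D12 the shares were 13.3%, 15.8%, 14.5% and 12.7%. In the Sox9cKO wells A11, A12, B1, B2 and B3 they were 3.52%, 1.71%, 3.83%, 4.11% and 3.41%. The lowest Sox9con well lay above the highest Sox9cKO well, although the wells of a library are not known to be independent preparations. At matched depth, with each cell thinned to 2000 UMIs and 616 Sox9con and 169 Sox9cKO cells too shallow to be used, 29.1% of Sox9con and 15.2% of Sox9cKO cells held any of the 5 transcripts (36.2% and 27.8% without thinning). At least 2 different ones were held by 7.40% and 0.865% of the thinned cells.

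**Figure D1:**
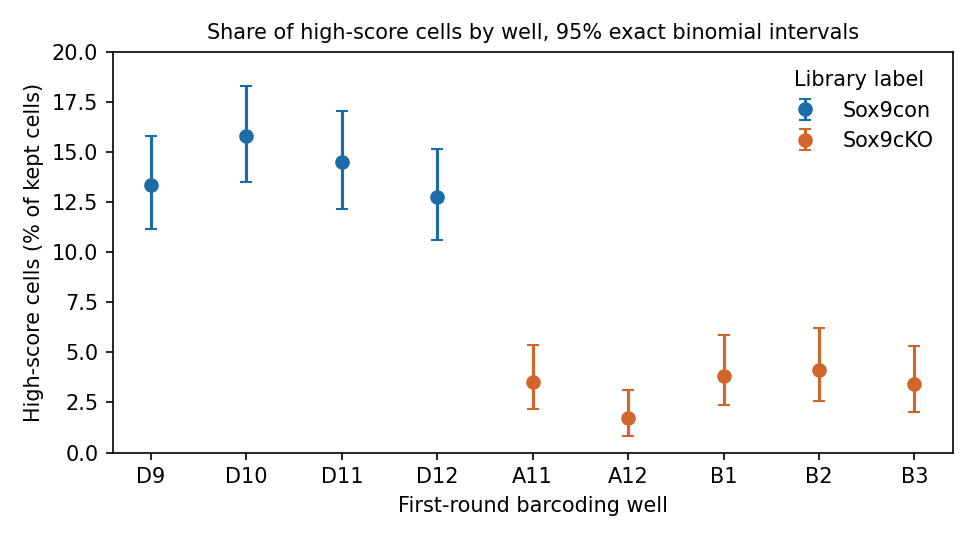
High-score cells as a percentage of the kept cells in each first-round barcoding well (x axis), with 95% exact binomial intervals; blue points are wells of the library labelled Sox9con and orange points wells of the library labelled Sox9cKO. The 4 Sox9con wells lie between 12.7% and 15.8% and the 5 Sox9cKO wells between 1.71% and 4.11%.

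The score level at the cut was 6.94 UMIs per 10000. The 20 high-score cells nearest to it held 6.97 to 7.14 UMIs per 10000, and the 20 cells with at least 2 UMIs just outside held 6.75 to 6.94, so the boundary is a cut through a continuous range and not a gap. A further 39 cells reached the level with 1 UMI and were not taken. High-score cells held a median of 4 score UMIs and at most 23.

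The 5 genes did not contribute alike. In Sox9con high-score cells the summed level was 219 CPM for Adgrv1, 135 CPM for Ctnna2, 294 CPM for Igsf11, 150 CPM for Npas3 and 627 CPM for Rnd1, against 11.2, 3.79, 34.6, 14.0 and 39.2 CPM in the remaining cells of that library. In Sox9cKO high-score cells the same genes stood at 48.0, 10.4, 192, 68.9 and 725 CPM, against 2.86, 3.63, 20.9, 4.68 and 51.3 CPM. The Sox9cKO group was thus mostly a Rnd1 group: Rnd1 gave 69.4% of its score UMIs, against 44.0% in Sox9con, and Ctnna2 gave 5 UMIs in 3 cells. Cells with Rnd1 as their only score gene were 46 of 89 (51.7%) in Sox9cKO and 94 of 495 (19.0%) in Sox9con. At least 2 different score genes were found in 317 Sox9con (64.0%) and 34 Sox9cKO (38.2%) high-score cells, and all 5 in 5 Sox9con cells and no Sox9cKO cell.

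As a background level, cells with at least 3 UMIs of endothelial markers, which should lack an epithelial programme, were read in Sox9con after leaving out the 14 of them that are high-score cells, which left 153. A UMI of Rnd1 was found in 9.80%, of Adgrv1 in 6.54%, of Ctnna2 in 0.654%, of Igsf11 in 4.58% and of Npas3 in 3.27% of these cells, at a median depth of 2495 UMIs. In the remaining Sox9con cells, at a median depth of 3222 UMIs, the shares were 11.1%, 3.19%, 1.16%, 9.53% and 4.15%. The share of Adgrv1 in remaining cells lies under this background. Those of Rnd1 and Npas3 lie near it, at a greater depth, so none of these shares is read as expression. For Ctnna2 the background rests on 1 cell with a UMI. In the high-score cells the shares of the 5 genes ran from 18.8% for Ctnna2 to 68.1% for Rnd1, which the rule sets.

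How far the 5 genes sit in the same cells is described by ranking cells on 4 of the genes and reading the fifth. The genes were chosen together from these data and the same UMIs enter the rule, so these ratios are a description and not an independent test. In Sox9con, Adgrv1 stood at 137 CPM in the 464 cells that were high in the other 4 genes and at 25.5 CPM in the rest, a log2 ratio of 2.42 (2.17 to 2.68). Ctnna2 gave 76.5 against 13.9 CPM, a log2 ratio of 2.46 (2.12 to 2.81). Npas3 gave 82.1 against 25.7 CPM (1.67, from 1.37 to 1.97), Rnd1 271 against 100.0 CPM (1.44, from 1.28 to 1.60) and Igsf11 136 against 62.0 CPM (1.13, from 0.91 to 1.36). Each of the 5 genes was higher in the cells chosen by the other 4, and the ratios taken within wells lay between 1.13 and 2.45.

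In the Sox9cKO library fewer UMIs lay behind the same comparison. Adgrv1 had a log2 ratio of 2.47 (1.45 to 3.42) from 12 UMIs, and Igsf11 1.04 (0.45 to 1.58). Rnd1 had 0.58 (0.11 to 1.02). Npas3 had -0.38 (-2.69 to 1.20) from 3 UMIs in 103 cells, and Ctnna2 had 0 UMIs in the 99 cells that were high in the other 4 genes, which allows up to 5.60 CPM, above the level of the rest. For these last genes a difference was not detectable at this depth, and the difference between libraries was not tested.

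**Figure D2:**
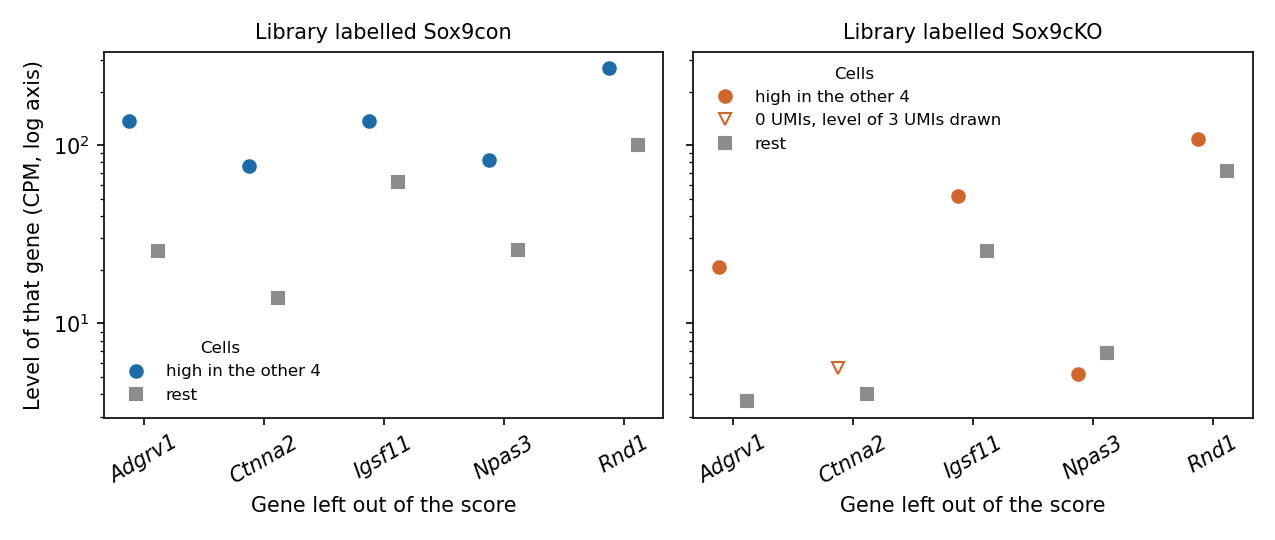
Level of each score gene (CPM, log axis) in cells that are high in the other 4 genes (circles) and in the rest of the kept cells (squares), for the library labelled Sox9con (left) and Sox9cKO (right); the open triangle stands at the level of 3 UMIs where 0 were counted. In Sox9con each circle lies above its square, with Adgrv1 at 137 against 25.5 CPM; in Sox9cKO, Npas3 and Ctnna2 do not.

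The promoters of Adgrv1, Ctnna2 and Igsf11 are shown because these 3 transcripts name the cells. Each run is the 250 bases before the RefSeq start (build GRCm38.p6), written 5′ to 3′ on the gene's strand, and capitals mark CG dinucleotides.
Adgrv1 (chr13:81633145-81633394, minus strand): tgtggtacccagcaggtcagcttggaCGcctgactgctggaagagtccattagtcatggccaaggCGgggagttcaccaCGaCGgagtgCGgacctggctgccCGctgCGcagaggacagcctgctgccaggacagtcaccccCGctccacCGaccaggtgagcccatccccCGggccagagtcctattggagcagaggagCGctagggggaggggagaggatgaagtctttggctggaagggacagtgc
Ctnna2 (chr6:77979668-77979917, minus strand): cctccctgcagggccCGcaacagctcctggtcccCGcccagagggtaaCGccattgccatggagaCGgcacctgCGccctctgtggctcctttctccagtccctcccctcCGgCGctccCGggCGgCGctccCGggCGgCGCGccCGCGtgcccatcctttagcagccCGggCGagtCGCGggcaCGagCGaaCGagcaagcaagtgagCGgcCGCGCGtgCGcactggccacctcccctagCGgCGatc
Igsf11 (chr16:38902095-38902344, plus strand): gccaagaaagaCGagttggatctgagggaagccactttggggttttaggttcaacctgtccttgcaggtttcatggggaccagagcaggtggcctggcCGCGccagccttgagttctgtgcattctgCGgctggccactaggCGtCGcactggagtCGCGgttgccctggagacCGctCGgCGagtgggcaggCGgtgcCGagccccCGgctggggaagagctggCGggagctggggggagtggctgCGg
They hold 11, 30 and 16 CG dinucleotides, and Npas3 holds 15 in its window, against a median of 6 over 32851 promoters of the same length. The table matched 4 of the 5 score genes, without Rnd1. Their GC content was 64.4% for Adgrv1, 73.2% for Ctnna2, 65.6% for Igsf11 and 66.4% for Npas3, with a median of 52.4% over the 32851 promoters. This describes the sequence and says nothing of its use in these cells.

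Across other genes, the Sox9con high-score cells differed from the remaining cells of their library in both directions. Of 7384 genes with at least 200 UMIs, 150 (2.03%) were at least 2-fold higher and 434 (5.88%) at least 2-fold lower in high-score cells, with a median log2 ratio of -0.05 over all of them. The minimum is on the library total, most of which is in remaining cells, so genes nearly absent from high-score cells pass it through the remaining cells alone, and the counts of the 2 directions are not set against each other. The direction held in each of the 4 wells for 140 of the 150 and 411 of the 434, and for 42.0% of all tested genes. The 150 and 434 were picked on the ratio pooled over these same wells, so this is largely set by the choice and is a description only. In Sox9cKO, 185 of 7576 genes (2.44%) were at least 2-fold higher and 607 (8.01%) at least 2-fold lower. Counting intervals lay wholly past 2-fold for 66 higher and 244 lower genes in Sox9con, and for 51 and 109 in Sox9cKO. Of the genes tested in both libraries, 53 were 2-fold higher in both, which is 37.3% of the 142 higher in Sox9con and 39.3% of the 135 higher in Sox9cKO. Lower in both were 219, which is 54.8% of the 400 lower in Sox9con and 41.0% of the 534 lower in Sox9cKO. No gene rests on a test here, and the 2-fold level is a rule of size.

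The genes furthest above the remaining cells were led by Nos2, the inducible nitric oxide synthase, by Rgs5, a regulator of G protein signalling known from pericytes, by Peg3, an imprinted zinc finger gene, and by Ankrd1, an ankyrin repeat protein that is a widely used readout of YAP and TAZ. Ankrd1 stood at 2289, 3580, 3343 and 2660 CPM in the high-score cells of wells D9 to D12 and at 487, 574, 712 and 644 CPM in the remaining cells. The 2 sets of wells did not overlap, and over all wells Ankrd1 had a log2 ratio of 2.32 (2.27 to 2.38), with 2941 against 587 CPM. Rgs5 stood at 287, 401, 558 and 312 CPM against 77.6, 50.5, 71.1 and 65.4 CPM, a log2 ratio of 2.48 (2.33 to 2.64). Rgs5 was found in 37.8% of high-score and 11.7% of remaining cells.

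Peg3 stood at 144, 131, 136 and 156 CPM in the wells of high-score cells and between 24.1 and 29.5 CPM in those of the remaining cells, a log2 ratio of 2.38 (2.13 to 2.63). Nos2 was more uneven: 147, 28.5, 74.2 and 39.5 CPM against 19.0, 10.8, 12.6 and 8.13 CPM. Its log2 ratio was 2.49 (2.14 to 2.84), but 1 cell held 15.9% of its UMIs in high-score cells and it was found in 6.46% of these cells. Kcnip4, a partner of potassium channels, stood at 538 against 108 CPM (2.32, from 2.20 to 2.45), with wells of high-score cells between 419 and 768 CPM. The higher group thus held both transcripts that many of the cells carried and a transcript carried by few.

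The rest of the 12 highest were counted at 76 to 287 UMIs and included several regulators of transcription. Foxp2, a forkhead factor, stood at 55.9 against 13.3 CPM (log2 ratio 2.07), Tox2, of the HMG-box family, at 99.6 against 24.8 CPM, and Hdx, a divergent homeobox gene, at 55.9 against 12.4 CPM (2.17). Apobec1, the deaminase that edits apolipoprotein B mRNA, stood at 161 against 45.7 CPM (1.81). The uncharacterised transcript A230001M10Rik stood at 92.8 against 21.7 CPM (2.09), Plcl1, a phospholipase C-like protein, at 92.8 against 27.6 CPM (1.75), and Lhfp at 42.5 against 12.7 CPM (1.73). The same sign in each of the 4 wells was a condition for naming them.

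In Sox9cKO the same genes, chosen for the same sign there, were mostly less far apart. A230001M10Rik had a log2 ratio of 2.16 (1.05 to 3.15) from 10 UMIs, Kcnip4 1.49 (1.33 to 1.65) and Ankrd1 1.42 (1.32 to 1.52). Nos2 had 1.32, Rgs5 1.30 and Hdx 1.18, Apobec1 stood at 169 against 59.7 CPM and Foxp2 at 33.4 against 16.6 CPM. Peg3 (0.45, from -0.32 to 1.13), Lhfp (0.61, from -0.13 to 1.28) and Plcl1 (0.01, from -0.92 to 0.80) had intervals that include 0, and Tox2 had 0.65 (0.07 to 1.18). The difference between the libraries in these ratios was not tested.

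**Figure D3:**
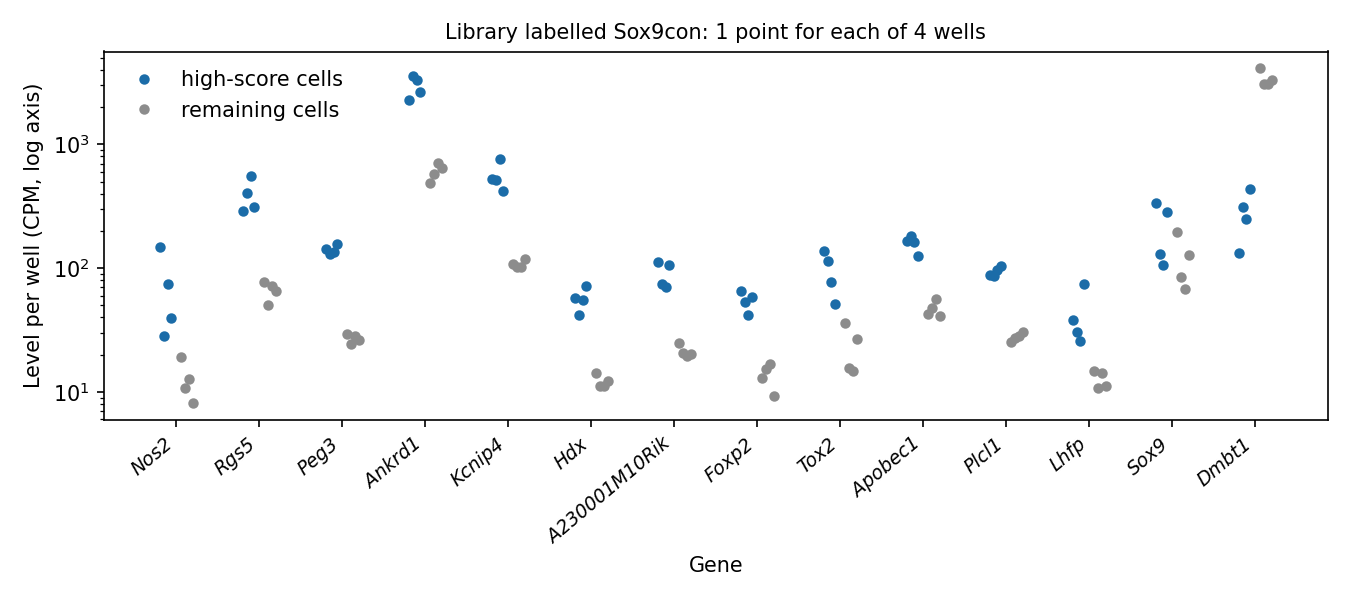
Levels per well (CPM, log axis) of the 12 highest genes, Sox9 and Dmbt1 in high-score cells (blue) and remaining cells (grey) of the library labelled Sox9con, 1 point for each of its 4 wells. For Ankrd1 the blue points lie between 2289 and 3580 CPM and the grey ones between 487 and 712 CPM; for Dmbt1 the order is the opposite, and for Sox9 the wells overlap.

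Sox9 itself was higher in the high-score cells, at 333, 129, 106 and 284 CPM in wells D9 to D12 against 195, 85.1, 68.0 and 127 CPM in the remaining cells. The ranges overlap between wells, because the wells themselves differ in Sox9, but within each well the high-score cells were above. The log2 ratio was 0.79 (0.63 to 0.95) in Sox9con and 0.64 (0.32 to 0.95) in Sox9cKO.

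On the side of lower genes, the high-score cells held few transcripts of several secreted and mucosal genes. Most of these genes were also few in the other Sox9con cells of the cluster that held most high-score cells, as given below. Dmbt1, a scavenger receptor protein secreted onto mucosal surfaces, stood at 132, 310, 252 and 439 CPM in the wells of high-score cells and at 4125, 3048, 3062 and 3286 CPM in those of the remaining cells. The wells did not overlap, the log2 ratio was -3.63 (-3.76 to -3.51), and 26.9% of high-score cells against 54.9% of remaining cells held a UMI of it. Muc6, a gel-forming mucin of gastric-type glands, had 1 UMI in the 495 high-score cells and 847 in the 3012 remaining cells, a log2 ratio of -6.94 (-12.43 to -4.65). A UMI of Muc6 was found in 0.202% of high-score and 1.73% of remaining cells. Its UMIs thus came from few of the remaining cells, and the interval does not cover that unevenness. Ndnf, a secreted neurotrophic protein, stood at 8.39 against 106 CPM (-3.65), Msln, the surface protein mesothelin, at 5.03 against 60.7 CPM (-3.57), and Eya2, a transcriptional coactivator, at 2.80 against 47.2 CPM (-4.04).

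The other genes of this group were counted at 1 to 5 UMIs in the Sox9con high-score cells, so that their ratios are imprecise. They were Gatm, an enzyme of creatine synthesis (1 UMI against 214), Rasgrf1, a Ras exchange factor (3 against 509), Spink4, a protease inhibitor of mucous cells (2 against 267), and Plxnc1, a semaphorin receptor (2 against 221). Tspan2, a tetraspanin, had 3 UMIs against 307, Areg, a ligand of the EGF receptor, 3 against 286, and Slc9a4, a sodium-proton exchanger of stomach, 5 against 404. In Sox9cKO, Dmbt1 had a log2 ratio of -4.33 (-4.73 to -3.96), 121 against 2434 CPM, and Muc6 had 0 UMIs in high-score cells, at least 3.61-fold lower than in the remaining cells when 3 UMIs stand for the count of 0. Areg was the gene of this group least apart there, at -0.69 (-2.16 to 0.44). Several of the named genes overlap another annotated gene, among them Ctnna2 with Lrrtm1 and Dmbt1 with Fgfr2 on the opposite strand, and Adgrv1, Igsf11, Kcnip4, Plcl1 and Foxp2 with a non-coding or predicted gene on their own strand. How the authors split such reads is not given in the sources used here, so these counts are uncertain to that extent.

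Several named genes were ordered by the number of different score genes found in a cell. Most of them were named for their ratio on the same score UMIs, so the order is in part set by that choice. In Sox9con, cells with 0, 1, 2 and at least 3 score genes numbered 2236, 861, 299 and 111, and Ankrd1 stood at 413, 1219, 2111 and 3202 CPM in them. Rgs5 stood at 40.9, 133, 306 and 449 CPM and Nos2 at 7.86, 23.4, 64.2 and 98.0 CPM. Dmbt1 stood at 3932, 2387, 413 and 282 CPM and Krt7 at 361, 209, 94.7 and 75.6 CPM, in the opposite order. Not each of the lower genes followed it: Muc6 stood at 61.6, 118, 2.35 and 0 CPM, and Spink4 at 30.5, 11.4, 0.78 and 3.44 CPM. Sox9 stood at 104, 171, 215 and 299 CPM. Depth moved along with these classes, with median UMIs of 3059, 3321, 3574 and 4449 per cell, and its part in the order was not tested. In Sox9cKO, Ankrd1 (486, 1244, 1275 and 1816 CPM) and Rgs5 (55.7, 108, 241 and 415 CPM) kept the order. There the last class broke it for Nos2 (48.8, 153, 190 and 117 CPM) and Sox9 (109, 139, 153 and 86.1 CPM). It also broke it for Dmbt1 (3089, 1097, 209 and 305 CPM) and Krt7 (237, 155, 132 and 141 CPM).

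**Figure D4:**
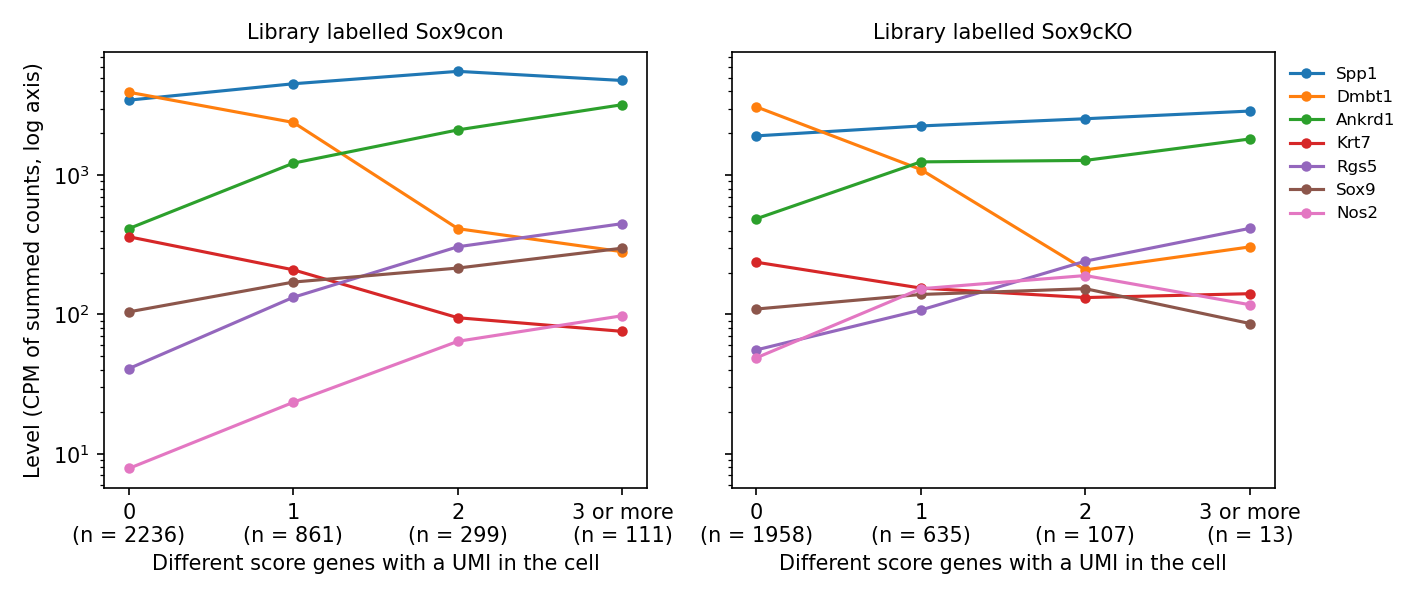
Levels (CPM of summed counts, log axis) of 7 genes in cells grouped by how many different score genes had a UMI (x axis, with the number of cells), for the library labelled Sox9con (left) and Sox9cKO (right). In Sox9con, Ankrd1 goes from 413 to 3202 CPM and Dmbt1 from 3932 to 282 CPM; in Sox9cKO the last class holds 13 cells.

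Among biliary markers, Krt8, Krt18 and Cdh1 were near equal between high-score and remaining cells of Sox9con, while the duct keratins Krt7 and Krt19 and several other epithelial genes were lower. Of 18 biliary markers, 17 had at least 50 UMIs in Sox9con, and their median log2 ratio was -0.03. Of these, 3 were at least 2-fold lower and 0 at least 2-fold higher (2.03% of all tested genes higher and 5.88% lower). Here and for the lists below, the shares of all tested genes are over genes with at least 200 UMIs, while list genes needed 50. The keratins Krt8 and Krt18 stood at 2258 against 2269 CPM and 2292 against 2338 CPM, and Cdh1, the epithelial cadherin, at 1768 against 1663 CPM. The duct keratins were lower, Krt7 at 99.6 against 312 CPM (log2 ratio -1.65, from -1.87 to -1.43) and Krt19 at 678 against 1726 CPM (-1.35, from -1.43 to -1.26), and so was Prom1, at 201 against 404 CPM. Higher, though under 2-fold, were Pkhd1, the fibrocystin gene of the primary cilium, at 1463 against 817 CPM (0.84), and Spp1, which encodes osteopontin, at 5814 against 3700 CPM (0.65). Lower by less than 2-fold were Epcam at 935 against 1126 CPM (-0.27), the annexin Anxa4 at 188 against 328 CPM (-0.80) and the tight junction claudins Cldn3 (-0.66), Cldn4 (-0.34) and Cldn7 (-0.18), and 10 of the 17 were below 0. The label biliary therefore rests on Krt8, Krt18, Epcam, Cdh1, Spp1 and Sox9, with lower Krt7 and Krt19. In Sox9cKO, Krt7 had a log2 ratio of -1.58, Krt19 -1.55, Pkhd1 0.50 and Spp1 0.45.

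Genes of bile secretion were split. Cftr, the apical chloride channel that drives secretion in ducts, stood at 664 against 269 CPM (log2 ratio 1.31, from 1.21 to 1.40) and was the 1 member of 12 measured that was at least 2-fold higher. Ano1, a calcium-activated chloride channel, stood at 149 against 647 CPM (-2.12, from -2.30 to -1.94), Aqp1, the water channel, at 9.51 against 36.6 CPM (-1.94), and the apical bile acid carrier Slc10a2 at 9.51 against 32.0 CPM (-1.74). The list's median was -0.30, with 9 of 12 below 0, 1 at least 2-fold higher and 3 lower (2.03% and 5.88% of all tested genes). In Sox9cKO, Cftr had 0.51, Ano1 -3.23 and Aqp1 1.34.

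YAP and TEAD target genes were the list with the largest share of higher genes among those with at least 10 measured. Of 10 measured, 5 were at least 2-fold higher (2.03% of all tested genes), 0 lower and 10 above 0, with a median of 0.75. That 2.03% is over genes with at least 200 UMIs, while list genes needed 50. Ccn2, Ajuba and Birc5 lay under 200 UMIs, so the 2 shares are not alike. The median was 0.37 without well D9, 0.39 without well D12, 0.37 with a minimum of 20 UMIs, 0.48 as a mean over cells, 0.34 within 5 classes of the dissociation response, 0.29 within clusters and 0.15 after thinning. Beside Ankrd1, the genes at least 2-fold higher included Ccn1, a matricellular protein, at 1729 against 579 CPM (1.58, from 1.51 to 1.64). The others were Ccn2, its relative, at 24.6 against 11.3 CPM (1.12), Ajuba at 8.95 against 3.97 CPM (1.16) and Birc5 at 10.1 against 4.43 CPM (1.17). The factors themselves were near equal, Yap1 at 175 against 159 CPM (0.14), Wwtr1, which encodes TAZ, at 246 against 225 CPM (0.13) and Tead1 at 509 against 490 CPM (0.05). In Sox9cKO the median was 0.39 over 9 genes, with Ccn1 at 1.36 and Ccn2 at -1.23.

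The upstream sequences of Ankrd1 and Ccn1, the 2 of these targets with the most UMIs, are given for the TEAD core motif. Each is the 250 bases before the RefSeq start (GRCm38.p6), 5′ to 3′ on the gene's strand, and capitals mark GGAATG or its reverse complement CATTCC.
Ankrd1 (chr19:36119845-36120094, minus strand): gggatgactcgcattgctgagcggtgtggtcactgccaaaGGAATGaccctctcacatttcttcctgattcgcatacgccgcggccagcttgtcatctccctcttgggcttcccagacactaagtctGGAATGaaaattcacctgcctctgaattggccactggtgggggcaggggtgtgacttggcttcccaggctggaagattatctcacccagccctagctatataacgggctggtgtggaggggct
Ccn1 (chr3:145649986-145650235, minus strand): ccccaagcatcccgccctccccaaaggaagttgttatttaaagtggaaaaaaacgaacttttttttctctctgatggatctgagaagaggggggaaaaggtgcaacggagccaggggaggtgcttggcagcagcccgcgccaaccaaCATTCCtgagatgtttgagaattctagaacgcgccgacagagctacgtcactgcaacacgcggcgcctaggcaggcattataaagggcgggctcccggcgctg
Ankrd1 holds the motif on its own strand with its first base 210 and 123 bases before the start, and Ccn1 holds it on the other strand, 103 bases before the start. Searched on both strands, GGAATG occurs in 12.6% of 32851 promoters of this length, and in 14.4% of 27025 genes in at least 1 of their promoters. Of the 9 genes of the YAP and TEAD list with an entry, 7 held it (Ajuba, Amotl2, Ankrd1, Axl, Ccn1, Wwtr1 and Yap1). Of the 12 highest genes, 10 had an entry and 4 held it (Ankrd1, Peg3, Plcl1 and Tox2), and none of the 4 score genes or of the 6 lowest genes with an entry held it. The SOX core motif ACAATG, which can overlap GGAATG by its end letters, occurs in 10.7% of the promoters and in none of those of the 4 score genes. A match is a run of letters and was not tied to binding.

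Immediate early and heat shock genes, which respond to tissue dissociation, moved with the high-score cells of Sox9con. Of 17 genes, 15 were above 0 and 2 at least 2-fold higher (2.03% of all tested genes). The list had a median of 0.63 and a summed level of 9234 against 5699 CPM. Within clusters the median was -0.39. Atf3 stood at 806 against 366 CPM (1.14), Ier3 at 951 against 471 CPM, Egr1 at 977 against 505 CPM (0.95) and Fos at 501 against 323 CPM (0.63), while Dusp1 was lower at 140 against 212 CPM (-0.60). In Sox9cKO the median was 0.01, with Fos at -0.99 and the heat shock genes Hspa1a and Hspa1b at -2.34 each. When Sox9con cells were compared within 5 classes of equal size by their dissociation response, the higher genes numbered 66 in place of 150, the lower ones 358 in place of 434, and Ankrd1 had a log2 ratio of 1.80, Rgs5 2.18, Nos2 2.89, Kcnip4 2.19 and Dmbt1 -3.29.

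Chemokines and cytokines of ducts had a median of 0.49, with 4 of 12 measured at least 2-fold higher and 0 lower (2.03% and 5.88% of all tested genes). Cxcl1 and Cxcl2, which attract neutrophils, stood at 2089 against 825 CPM (1.34) and 1492 against 787 CPM (0.92). Lif stood at 308 against 147 CPM (1.07), Csf1 at 272 against 130 CPM (1.06) and Ccl2 at 43.1 against 20.1 CPM (1.09). In Sox9cKO the median was 0.95, with all 12 measured genes above 0, 6 at least 2-fold higher (2.44% of all tested genes) and Ccl2 at 3.27. This list depended on Rnd1: with Rnd1 taken out of the score, its median in Sox9con was -0.17, and without well D9 it was 0.81.

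The families of the score genes themselves moved in no common direction. Among genes of the Usher complex and ankle link, the class of Adgrv1, 5 of 12 had 50 UMIs or more, with a median of 0.19. Of these, 0 were at least 2-fold higher and 2 lower (2.03% and 5.88% of all tested genes). The list summed to 353 against 645 CPM. Myo7a stood at 21.8 against 16.8 CPM (0.37) and Whrn at 16.2 against 12.4 CPM (0.39), and Ush1c was lower at 5.03 against 14.9 CPM (-1.55). Among cadherins and catenins, related to Ctnna2, 2 of 14 were at least 2-fold higher and 1 lower (2.03% and 5.88% of all tested genes). Their median was 0.10. Cdh2, the neural cadherin, stood at 35.8 against 7.39 CPM (2.26, from 1.78 to 2.77), Ctnnd2, the neural delta-catenin, at 376 against 150 CPM (1.32, from 1.19 to 1.46), and Cdh13 at 31.9 against 284 CPM (-3.15, from -3.56 to -2.78). The ubiquitous Ctnna1 and Ctnnb1 stood at -0.13 and -0.23.

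Synaptic adhesion genes, the class of Igsf11, had a median of -0.20, and 11 of the 25 genes were under 50 UMIs. Of 14 measured, 2 were at least 2-fold higher and 3 lower (2.03% and 5.88% of all tested genes). Dscam (10.1 against 3.97 CPM, 1.32) and Nrxn2 (14.5 against 6.10 CPM, 1.24) were higher, and Lsamp (5.03 against 28.1 CPM, -2.46) and Ncam1 (8.95 against 26.9 CPM, -1.58) were lower. Basic helix-loop-helix PAS factors, the class of Npas3, had a median of 0.24 with 0 of 7 past 2-fold in either direction, from Ahr at 0.33 to Arnt at -0.36. For Rnd1, 20 genes of small GTPase, plexin and semaphorin signalling had a median of -0.26. Of these, 4 were at least 2-fold lower (5.88% of all tested genes): Sema4b (-1.49), Plxna2 (-1.46), Plxnd1 (-1.10) and Nrp1 (-1.02). Rhob, at 158 against 84.0 CPM (0.91), was the highest of them, and Rnd3 stood at 191 against 142 CPM (0.43). Over the alternatives run, the medians of the ankle link, catenin, synaptic and PAS lists each took both signs, and that of the Rnd1 list ran from -0.31 to -0.10.

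Transcription factors of liver and ducts kept a median of -0.02 over 19 measured. Beside Sox9, Cebpa (0.82), Ehf (0.53) and Prox1 (0.45) were above 0. Tead4, at 47.5 against 95.6 CPM (-1.01), was the 1 that was at least 2-fold lower (5.88% of all tested genes). Klf5 (-0.91) and Onecut2 (-0.88, 786 against 1450 CPM) were lower by less. Notch genes had a median of 0.26 over 6 measured, with Jag1, a ligand, at 71.0 against 49.1 CPM (0.53), the target Hes1 at 108 against 92.7 CPM (0.22) and none past 2-fold. Ribosomal protein genes had a median of -0.18, with 17 of 18 below 0 and none past 2-fold.

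Markers of other cells moved in different directions in Sox9con. Endothelial and tuft markers were lower, hepatocyte, immune and multiciliated markers summed higher, and glial and neuronal markers were near equal. Endothelial markers summed to 154 CPM in high-score and 476 CPM in remaining cells of Sox9con. The wells ranged from 76.6 to 245 CPM and from 331 to 587 CPM. Of 11 measured, 9 were at least 2-fold lower (5.88% of all tested genes). Tuft cell markers summed to 38.6 against 117 CPM, with Trpm5 at 0 UMIs. Of 15 glial and neuronal markers, 9 were at 0 UMIs in high-score cells, among them Sox10, Cdh19, Rbfox3 and Snap25, and the list summed to 47.0 against 45.4 CPM. Of the 3 measured at 50 UMIs or more, Elavl3, an RNA-binding protein of neurons, was higher at 20.7 against 7.94 CPM (1.37, from 0.78 to 1.95), with the opposite sign in well D12, and Syt1 stood at 20.7 against 15.1 CPM (0.45, from -0.11 to 0.97). Neuroendocrine markers summed to 2.80 against 3.70 CPM with none measured at 50 UMIs. Immune markers summed to 116 against 75.2 CPM, with Ptprc and Cd3e at 0 UMIs and Cd74 at 77.7 against 35.7 CPM (1.12). Hepatocyte markers summed to 1235 against 868 CPM, with Alb at 693 against 299 CPM (1.22) and Serpina1c at 16.2 against 4.53 CPM (1.82), and Cyp2e1 at 0 UMIs. Their part in the results was not tested.

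The genes that lead other groups of cells in these libraries were mostly lower in Sox9con. Those groups were found in these same data and most of their cells are remaining cells. Lower values are therefore in large part set by the choice of list and are a description only. Of 16 measured, 9 were at least 2-fold lower and 1, Scin (25.2 against 11.5 CPM, 1.12), higher (5.88% and 2.03% of all tested genes), with a median of -1.38, which was -0.89 without well D10. The mucins Muc6 and Muc4 (12.9 against 108 CPM, -3.06), Car4 (16.2 against 108 CPM, -2.73) and Tff2 (16.8 against 99.9 CPM, -2.57) were among the lower. In Sox9cKO the median of 17 measured was -0.11, with 8 above 0 and 9 below. There 1 was at least 2-fold higher and 8 lower (2.44% and 8.01% of all tested genes). Cells with a high Dnah12, Mmp25 and Scin score were 5.25% (3.46 to 7.60) of the high-score cells and 2.89% (2.32 to 3.55) of the remaining cells of Sox9con, whereas cells with a high Muc6 and Bcl11a score were 0.202% (0.00511 to 1.12) and 2.46% (1.93 to 3.07). In Sox9cKO the shares were 3.37% (0.701 to 9.54) against 2.52% (1.95 to 3.19) for the Dnah12 group and 1.12% (0.0284 to 6.10) against 2.52% (1.95 to 3.19) for the Muc6 group, and no difference was detectable at this depth.

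When the cells were clustered without the 5 score genes and Sox9, most of the high-score cells fell in 1 cluster at the main setting. Cluster 8, led by A230001M10Rik, Rhoj, Apoc1, Ddit4l and Arhgap6, held 386 of the 584 high-score cells (66.1%), and 36.8% (33.8 to 39.8) of its own cells were high-score cells. It drew 963 of its 1050 cells from Sox9con. It held 74.1% of the Sox9con and 21.3% of the Sox9cKO high-score cells, which instead lay in cluster 1 (38.2%, led by Hp, Serpina1b and Hpx) and cluster 0 (25.8%, led by Ces1c, Medag and Esr1), clusters that are nearly all Sox9cKO. Cluster 7, led by Scin, Mmp25 and Dnah12, was 28.5% high-score among its Sox9con cells. The high-score cells of the 2 libraries are thus for the most part different clusters, and values compared between them below compare those clusters. The grouping changed with the setting. With 4000 variable genes the fullest cluster, led by Gm47507, Mmp25 and Fanci, held 52.6% of the high-score cells. Another, led by Gm42031, Hilpda and Fdps, held 32.0%. With resolution 1.0 the fullest cluster, led by Rhoj, Apoc1 and Hilpda, held 56.8%.

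**Figure D5:**
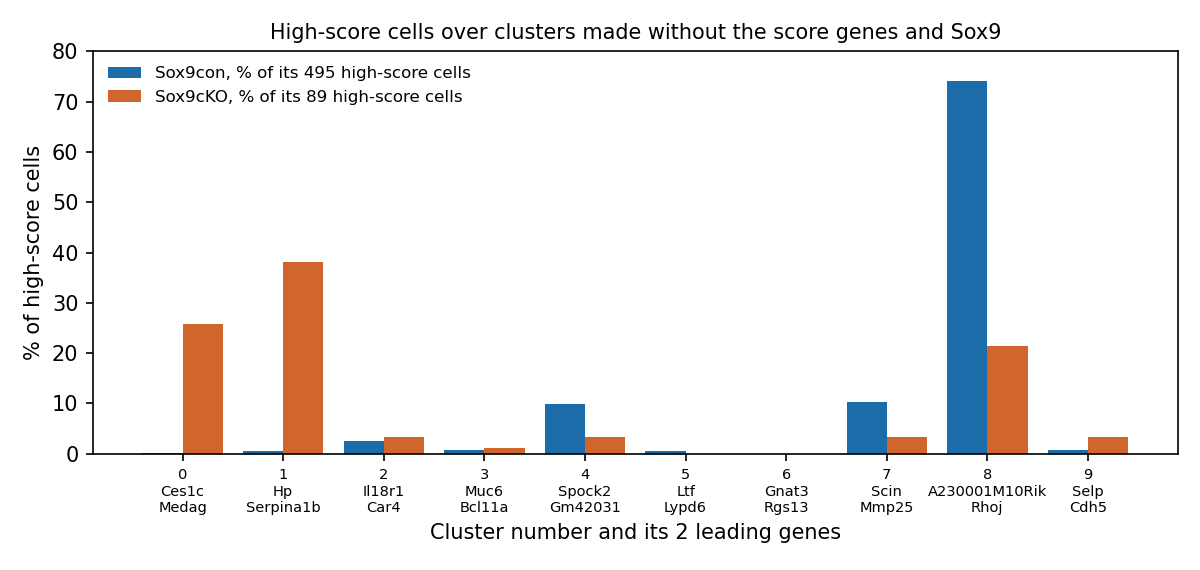
Percentage of the high-score cells of each library (blue, Sox9con; orange, Sox9cKO) that fell in each of 10 clusters made without the score genes and Sox9; the x axis gives the cluster number and its 2 leading genes. Cluster 8 holds 74.1% of the Sox9con high-score cells, and clusters 1 and 0 hold 38.2% and 25.8% of those of Sox9cKO.

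Part of the contrast was that of cluster 8 against the other clusters, and part lay within it. Among the Sox9con cells of cluster 8, 367 high-score cells were set against 596 others. Nos2 stood at 91.1 against 32.4 CPM (1.48, from 1.05 to 1.94), Kcnip4 at 608 against 219 CPM (1.47, from 1.31 to 1.64), Rgs5 at 411 against 190 CPM (1.11, from 0.92 to 1.30) and Ankrd1 at 3433 against 1883 CPM (0.87, from 0.80 to 0.93). The other highest genes were under 2-fold there: Hdx (0.76), Apobec1 (0.76), Tox2 (0.64), Foxp2 (0.62), Peg3 (0.57), Plcl1 (0.50) and A230001M10Rik (0.40), with Lhfp below 0. All of these ratios were smaller than over all Sox9con cells, and Peg3 and A230001M10Rik are among the leading genes of cluster 8. Dmbt1 stood at 82.3 against 229 CPM (-1.47, from -1.78 to -1.17). Sox9, at 243 against 232 CPM (0.07, from -0.14 to 0.27), and Spp1, at 6111 against 6041 CPM (0.02), were near equal, Pkhd1 was slightly lower (-0.14) and Cftr higher (0.54). Apart from Dmbt1, the 12 lowest genes were also few in the other cells of cluster 8. Muc6 had 5 UMIs in those cells, Ndnf 5, Gatm 5, Spink4 4 and Msln 13, and the intervals of these ratios include 0. Their low level was thus shared within the cluster and not particular to the high-score cells. Lhfp of the 12 highest had the opposite sign there, at -0.17 (-0.68 to 0.33), as had Eya2 of the 12 lowest, with 1 UMI in each kind of cell. Over all clusters at once, 12 genes were at least 2-fold higher and 84 lower within clusters, against 150 and 434 without this; the clusters are built from these genes, so part of each difference is taken up by the clusters.

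Last, the high-score cells were compared between libraries. Of 4064 genes with at least 100 UMIs, 127 (3.12%) were at least 2-fold higher and 178 (4.38%) at least 2-fold lower in Sox9cKO. Of the same genes in the remaining cells, 59 (1.45%) were higher and 49 (1.21%) lower. The Sox9cKO high-score cells held 478840 UMIs and its remaining cells 14316055, so counting error takes more genes past 2-fold in high-score cells. The counts of the 2 kinds of cells are therefore not set against each other. In high-score cells, the counting interval lay wholly past 2-fold for 66 higher and 30 lower genes. The genes named next are those at the ends of the ratio between libraries in high-score cells, chosen after their values were seen. Gc, the plasma carrier of vitamin D, stood at 556 against 26.3 CPM in high-score cells (log2 ratio 4.38, from 3.95 to 4.88) and at 205 against 8.41 CPM in remaining cells (4.60), and Vtn, vitronectin, at 468 against 29.1 CPM (3.99) and 200.1 against 6.65 CPM (4.90). Other plasma protein transcripts had the opposite sign, Ttr, transthyretin, at 102 against 196 CPM (-0.93) and 69.6 against 152 CPM (-1.13), and Apoc1, an apolipoprotein, at -2.12 and -1.53. Nid1, a basement membrane protein, stood at 278 against 3.36 CPM (6.20, from 5.21 to 7.84) and at 95.3 against 16.8 CPM in remaining cells, and Ncam1 at 228 against 8.95 CPM (4.60), with a log2 ratio of 2.77 in remaining cells.

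Ccl2 was among the genes further apart in high-score cells, at 294 against 43.1 CPM (2.76, from 2.36 to 3.19), with 0.59 in the remaining cells. On the lower side, Hspa1a stood at 16.7 against 196 CPM (-3.52, from -4.78 to -2.56) in high-score cells and at 84.9 against 109 CPM (-0.36) in remaining cells, and Hspa1b at 20.9 against 184 CPM (-3.11), with 0.03. Fanci, a DNA repair gene, had 2 UMIs against 150 (-4.19, from -7.39 to -2.45), with -0.14 in the remaining cells. Sox9 was at -0.27 (-0.62 to 0.06) in high-score cells, Ankrd1 at -0.63 (-0.74 to -0.53) and Spp1 at -1.08 (-1.16 to -0.99). With 1 library per genotype, the genotype, the preparation and the cluster make-up of the high-score cells cannot be told apart.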

How the data were processed

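Single biliary epithelial cells of mouse liver were profiled in 2 libraries, 1 per genotype label. The authors deposited whole-number UMI counts for every pair of cell and gene, beside tables of cells and genes, per the file headers, for 55415 genes, of which 1416 have no symbol. The build is GRCm39 per the submitters' processing notes; the aligner, annotation release, strand setting and cell calling are not given in the sources used here. Kept cells held 12613570 UMIs in Sox9con and 14794895 in Sox9cKO.

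From these counts, UMIs were summed over high-score and over remaining cells of a library, divided by all their UMIs (CPM), and compared as log2 ratios with 0.5 counts added at the mean total. Genes needed 200 UMIs in the library (50 for list genes, 100 for the comparison of high-score cells between libraries). Intervals are exact: Poisson for levels, Clopper-Pearson for shares and conditional binomial for ratios, at 95%. They cover counting error only. No model was fitted over samples. Named genes were the 12 highest and 12 lowest log2 ratios in Sox9con with the same sign in its 4 wells and in Sox9cKO, the 5 score genes, Sox9, and from each list its highest and lowest genes and up to 4 others. The members and the lists were chosen with earlier results of these data known. Clusters (scanpy 1.11.5, Leiden, resolution 0.5, 2000 variable genes, 30 components, 15 neighbours) left out the score genes and Sox9, and high-score cells were never clustered alone. Scrublet marked 12 of 6220 cells (0.193%), a share at which the caller has not worked, and none was removed. The ratio step was tested on simulated counts. Scaling alternatives used edgeR 4.0.16 (TMM) and DESeq2 1.42.0 (size factors); other alternatives changed the score, the cell and gene filters, depth, wells and strata, and those that changed the score genes or compared within clusters or classes of dissociation response were chosen after seeing the data. Promoter sequences are from RefSeq (GRCm38.p6), and gene overlaps were read from GENCODE annotation of GRCm38; coordinates of the authors' build were not used. Of the list symbols, 4 were not in the gene table.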

Additional observations from a re-analysis of the deposited data

Results flagged for a closer look

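The median log2 ratio of 9 measured proliferation genes, high-score over remaining cells, was 0.37 in Sox9con, while that of 8 measured in Sox9cKO was -0.38. It is listed because the 2 libraries had opposite signs, and the difference between them was not tested. The list summed to 209 against 190 CPM in Sox9con and to 117 against 156 CPM in Sox9cKO, where 5 of its 17 genes were at 0 UMIs in high-score cells. Mki67 stood at 31.9 against 16.5 CPM (0.94) in Sox9con and at 12.5 against 17.5 CPM (-0.48) in Sox9cKO. Top2a had 0.37 (-0.10 to 0.82) in Sox9con, and without well D9 the Sox9con median was -0.00059.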

How the results depend on the processing

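No paired analysis was possible because each genotype is 1 library and the columns carry no shared replicate number. Of 475 named gene ratios recomputed, none changed direction, and 89 left the counting interval of the main value, 23 of these within clusters. Within cluster 8 alone the sign did change for Lhfp (-0.17) and Eya2 (0.41, from 1 UMI on each side). The highest and lowest genes were named only with the same sign in each Sox9con well and in Sox9cKO. The settings also reuse the same counts, so few changes of direction could arise. The share of high-score cells in Sox9con and Sox9cKO was 8.16% and 0.921% for the top 5%, 19.8% and 9.92% for the top 20%, 9.04% and 1.25% with at least 2 different score genes, and 11.8% and 2.47% without Rnd1. It was 11.4% in Sox9con with at least 3 score UMIs and 15.6% under the stricter cell filter, and in Sox9cKO 4.05% after thinning, 4.09% without well D10 and 4.05% without well D11, where the cut was set anew. Genes at least 2-fold higher and lower in Sox9con numbered 255 and 657 with a minimum of 100 UMIs, 3086 and 7291 with 1 UMI, 496 and 1000 at 1.5-fold, 75 and 253 after thinning (fewer cells and UMIs), and 12 and 84 within clusters. Within 5 dissociation classes 66 were higher. Between libraries, genes higher and lower in Sox9cKO numbered 232 and 404 with a minimum of 50 UMIs, 70 and 85 with 200, and 352 and 606 at 1.5-fold. The fullest cluster held 52.6% of high-score cells with 4000 variable genes, where it was led by Gm47507, Mmp25 and Fanci, and 56.8% at resolution 1.0.

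List medians in Sox9con moved as follows, and where no construction is named the cause was not tested. Dissociation response had 0.46 as a mean over cells, 0.49 after thinning, 0.78 without well D10, 0.49 without well D9, -0.39 within clusters and -0.10 within classes of its own level. Proliferation had -0.00059 without well D9, -0.36 within clusters and -0.024 within dissociation classes. Chemokines had 0.15 with at least 2 different score genes, 0.81 without well D9 and -0.17 without Rnd1. Biliary epithelium had -0.10 with a minimum of 20 or 1 UMIs, -0.094 without other-class cells, -0.097 after thinning, -0.25 without Rnd1 and -0.11 within dissociation classes. Endothelial had -2.59 with at least 2 different score genes, -2.53 after thinning, -2.47 without well D10, -2.69 without the top 5% by Scrublet score, -0.35 within clusters and -2.39 within dissociation classes. Mesenchymal had -1.75 with at least 3 score UMIs, -1.07 for the top 5%, -1.82 with at least 2 different score genes, -1.24 without Rnd1 and -1.36 within clusters. Tuft had -3.23 with a minimum of 1 UMI and -0.43 within clusters. Also within clusters, basic helix-loop-helix PAS factors had -0.042, Notch -0.033, ribosomal proteins 0.066 and other biliary programmes -0.40. Depth limits the Sox9cKO values, with 478840 UMIs in its 89 high-score cells.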

Other observations

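Selp, which encodes P-selectin of endothelium, had a log2 ratio of 4.27 in Sox9con high-score cells, but 173 of its 184 UMIs lay in 1 cell and 11 in another, and both cells held at least 3 endothelial marker UMIs. It failed the condition on wells and was not named with the other genes.

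Markers of multiciliated cells summed to 63.2 against 24.8 CPM in Sox9con, and both of the 2 measured were at least 2-fold higher (2.03% of all tested genes). The axonemal dynein Dnah5 stood at 44.2 against 9.33 CPM (log2 ratio 2.23, from 1.80 to 2.68). The ciliogenesis factor Foxj1 stood at 12.9 against 4.06 CPM (1.64, from 0.87 to 2.42), while Tekt1 and Pifo of motile cilia were at 0 UMIs. Of 4 measured in Sox9cKO, 0 were past 2-fold. The values that follow are of Sox9con. The mesenchymal markers summed to 157 against 226 CPM, of which Reln was 126 against 205 CPM, and mesothelial markers summed to 49.8 against 97.1 CPM. Nuclear retained RNAs showed no common direction, with Malat1 at 0.00, Neat1 at -0.29 and Kcnq1ot1 at 0.37. Of 7 genes that are low in the library labelled Sox9cKO, the median was -0.05, with A230001M10Rik highest at 2.09 and S100b lowest at -2.23.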
